A study of Saccharomyces cerevisiae with 12 samples.

Results

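Transcript levels of EC1118, a commercial wine strain of Saccharomyces cerevisiae, were compared between day 19 and day 7 of a second fermentation, in which still base wine receives sugar and yeast and ferments once more under closure to become sparkling. The comparison was set by the sampling points in the labels, and it used 6 of the 12 arrays of the series: the 3 arrays of day 19 and the 3 arrays of day 7. It covered all 5449 S. cerevisiae genes to which a probe set could be assigned. At day 19 the ethanol content had increased by 1.27%, and at day 7 it had increased by 0.26%. Bottles of both days shared their history up to sampling. Cells grown for 48 h in YPD, a rich glucose medium, were adapted to ethanol for 4 to 5 days at 28 °C in a medium holding 482 mL/L of base wine and 20 g/L of sucrose. Base wine with 20 g/L of sucrose was then inoculated with these cells, divided into 350 mL bottles, sealed and kept without shaking at 16 °C. The labels describe the 3 arrays of a day as biological replicates from independent tirage assays, tirage being the filling of the bottles. The labels do not say whether equal replicate numbers at day 19 and day 7 mark a shared batch of wine. The 3 arrays of day 15, when ethanol had increased by 0.89%, entered the fit so that the spread of a gene was estimated from 9 bottle arrays. The 3 arrays of an unstressed YPD culture were not compared.

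In a sealed bottle the yeast uses up the dissolved oxygen early, and then ferments sucrose, which invertase splits outside the cell, while ethanol and carbon dioxide accumulate. Sterol synthesis, the desaturation of fatty acids and heme synthesis need molecular oxygen, and yeast senses its shortage largely through these products: sterol through Upc2 and Ecm22, membrane fatty acids through Mga2 and Spt23, heme through Hap1 and Rox1. Wine yeast in this setting is also known for slow or arrested division, for a shortage of nitrogen and for the breakdown of its own proteins late in ageing.

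All values are log2 RMA values, in which arrays are normalized to each other, so a higher value means a larger share of the RNA labelled and not more RNA per cell. In these bulk samples fewer cells with a transcript and less of it per cell cannot be told apart. Between 98.3% and 98.8% of the genes lay above background on each of the 9 bottle arrays, background being the 0.95 quantile of the array's S. pombe probe sets. Day 19 replicate 1 and day 7 replicate 1 stood apart from the other 7 bottle arrays. They lay at one end of the first principal component of the bottle arrays, which held 36.8% of the variance, and each was the other's closest array, with a correlation of 0.918 across genes. Replicates of day 19 correlated at 0.817 to 0.939 across genes and those of day 7 at 0.892 to 0.966. Over all genes the median of the standard deviations was 0.43 at day 19 and 0.32 at day 7, and 62.7% of the genes had the larger one at day 19. The 17 ribosomal RNA probe sets averaged 12.28 ± 0.79 at day 19 and 12.20 ± 1.02 at day 7 (SD, n = 3 each), so the difference of the days lay within the spread of the arrays. The difference of the 3′ and 5′ actin probe sets, a measure of RNA integrity, was 0.39 to 0.54 at day 19 and 0.12 to 0.62 at day 7. What sets the pair of replicate 1 arrays apart was not tested. Results without them are therefore also given for part of the genes and lists.

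No gene passed the test. With limma and Benjamini-Hochberg adjustment over 5449 genes, 0 genes were higher and 0 lower at day 19 at an adjusted p under 0.05, which is 0% of the genes. The smallest adjusted p was 0.0796. At an unadjusted p under 0.05 there were 260 higher and 184 lower genes. The median standard error of a log2 difference was 0.33, and the median difference of all genes was -0.01. A difference of 2-fold or more was found for 230 genes with the higher mean at day 19 and for 106 with the lower. For 320 genes, 5.87% of those tested, all 3 arrays of day 19 lay above all 3 arrays of day 7, and for 332 genes, 6.09%, they lay below. These are called not overlapping here, and 102 of the higher and 49 of the lower ones also differed by at least 2-fold. Estimating the spread from all 12 arrays, with the YPD culture included, called 7 genes higher and 1 lower, 0.147% of the genes, at the same threshold. The median standard error in that fit was 0.29, against 0.33 with the bottle arrays alone. The YPD arrays were left out of the main fit because earlier results of these data showed a smaller spread between them than between bottle arrays. Pooling them would make the standard errors of bottle comparisons too small, which limits the calls of the 12-array fit. Without day 19 replicate 1, 49 genes were higher and 16 lower, 1.19% of the genes, and without both replicate 1 arrays 19 were higher and 7 lower, 0.477%.

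The 10 genes of smallest p with a higher mean at day 19 were led by FAA4, RNR3, PLB2, IZH4 and MGA2. FAA4 (YMR246W, chromosome XIII) encodes a long-chain acyl-CoA synthetase, which activates fatty acids taken up from the medium or set free in the cell. Its log2 values were 12.29, 12.76 and 12.80 at day 19, against 11.04, 10.61 and 10.35 at day 7. The lowest array of day 19 lay 1 log2 unit or more above every array of day 7, and the mean was 3.87-fold higher (log2 difference 1.95 ± 0.26 SE, adjusted p = 0.0796). RNR3 (YIL066C, chromosome IX), the minor large subunit of ribonucleotide reductase, known for its induction by DNA damage, stood at 11.00, 11.11 and 11.25 at day 19, against 9.12, 9.08 and 8.95 at day 7. The 3 arrays of each day lay close together, and the mean was 4.20-fold higher (2.07 ± 0.28, adjusted p = 0.0796). PLB2 (YMR006C, chromosome XIII), a phospholipase B that releases fatty acids from lysophospholipids, stood at 11.46, 11.04 and 11.75 at day 19, against 9.29, 9.89 and 9.68 at day 7, a difference of 1.80 ± 0.27 (adjusted p = 0.139). FAA4 was 1.79 to 2.30 higher in the 22 alternative fits and RNR3 2.00 to 2.17.

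The other 5 genes with a higher mean and the 10 genes with a lower mean were spread over several functions. GAS2, a glucanosyltransferase of the spore wall, stood at 10.35, 10.59 and 10.56 at day 19, against 9.42, 8.92 and 9.30 at day 7. POS5, the mitochondrial NADH kinase, stood at 10.64, 10.91 and 11.22 at day 19, against 9.94, 9.84 and 9.56 at day 7. The unnamed open reading frames YGL262W and YLR326W had means 3.02-fold and 2.31-fold higher at day 19, and FET3, an iron gene, is described with its pathway. Among genes with a lower mean, YCH1, a phosphatase related to Cdc25, had the smallest p. It stood at 9.32, 8.76 and 8.40 at day 19, against 10.12, 10.75 and 10.79 at day 7, so that the mean was 3.31-fold lower (-1.73 ± 0.31, adjusted p = 0.20). DDR48, a stress protein, stood at 12.32, 12.26 and 12.14 at day 19, against 13.22, 13.27 and 13.30 at day 7. The groups lay far apart for their small spread (-1.03 ± 0.20, adjusted p = 0.31).

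The other 8 genes with a lower mean had adjusted p values of 0.416 to 0.465. CHC1, the clathrin heavy chain of endocytic and Golgi vesicles, stood at 10.77, 9.75 and 9.38 at day 19, against 11.44, 11.36 and 11.65 at day 7. SEC31, of the coat of vesicles leaving the endoplasmic reticulum, stood at 9.97, 9.77 and 10.58 at day 19, against 11.27, 11.15 and 11.02 at day 7. ALT1, the mitochondrial alanine transaminase, stood at 10.30, 10.33 and 9.77 at day 19, against 11.60, 11.71 and 12.26 at day 7. In none of these 3 did the groups overlap, and the means were 2.86-fold, 2.05-fold and 3.30-fold lower. PRD1, a metallopeptidase, MEF2, a mitochondrial translation factor, APE1, the vacuolar aminopeptidase I, RFS1, of the flavodoxin-like family, and BSC5, of unknown function, had means 2.83-fold, 2.36-fold, 2.20-fold, 2.03-fold and 2.23-fold lower. The groups of all 20 genes did not overlap, which the choice by smallest p favours, and all 20 kept their sign in each of the 22 alternative fits. The day 15 mean lay between those of day 7 and day 19 for 19 of the 20, RFS1 being the exception.

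**Figure D1:**
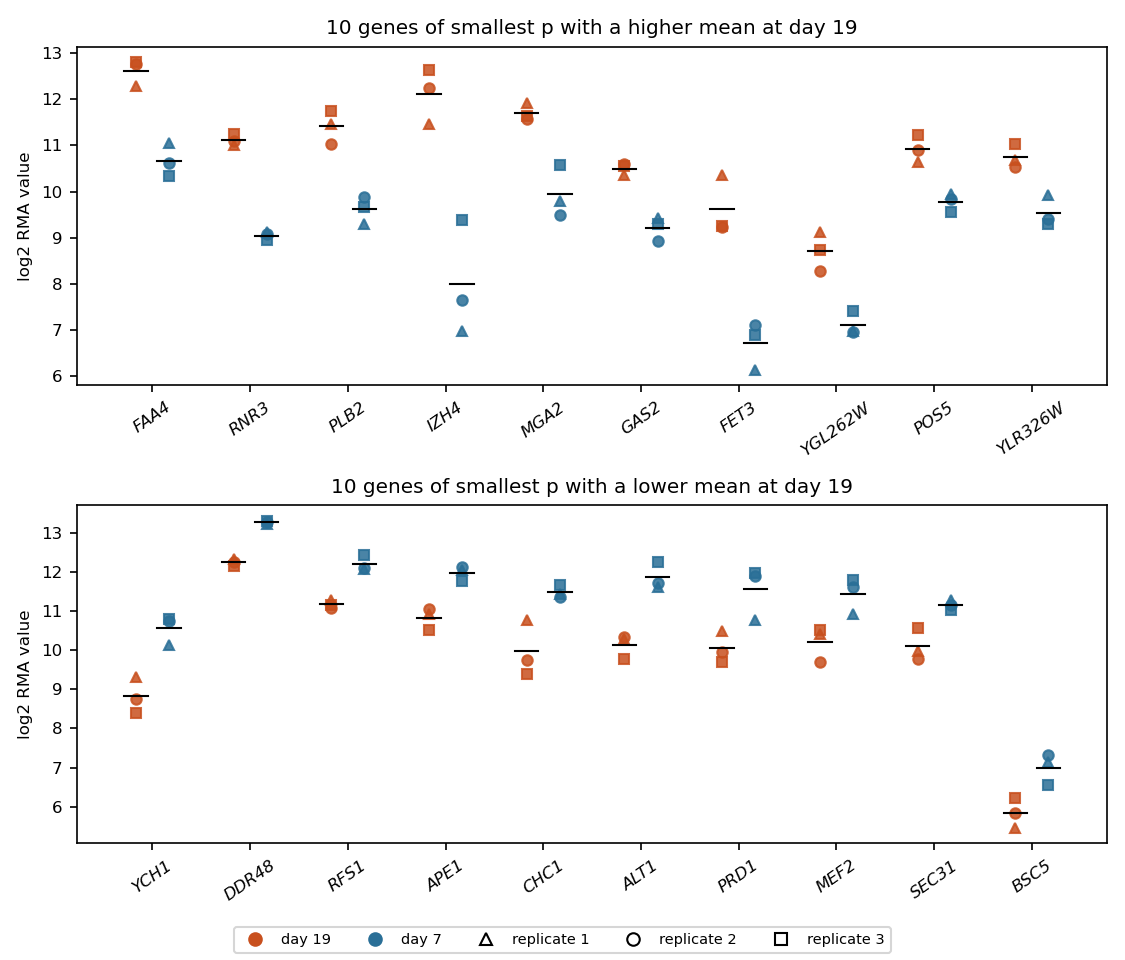
Log2 RMA values of the 20 genes of smallest p, with the 10 of higher mean at day 19 in the upper panel and the 10 of lower mean in the lower panel. Each point is 1 array (day 19 orange, at the left of each gene; day 7 blue, at the right; marker shape gives the replicate number) and each bar the mean of 3 arrays. No gene's arrays overlap between the days and IZH4 has the widest gap between means (4.12).

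Of the paired regulators that sense membrane fatty acids, MGA2 was higher on every array of day 19 and SPT23 was not. MGA2 (YIR033W, chromosome IX), the membrane-anchored transcription factor that the proteasome releases when membrane fatty acids are too saturated, stood at 11.91, 11.57 and 11.64 at day 19, against 9.81, 9.48 and 10.57 at day 7. Its mean was 3.38-fold higher (1.76 ± 0.29, adjusted p = 0.177), and it was called in the 12-array fit (adjusted p = 0.022). OLE1, the only fatty acid desaturase of the yeast and the best known target of Mga2, stood at 13.88, 14.08 and 14.05 at day 19, against 13.18, 11.88 and 13.43 at day 7. Its groups did not overlap, but the day 7 arrays were spread over more than 1 log2 unit (1.17 ± 0.38, adjusted p = 0.517). SPT23, its paralog, stood at 10.74, 11.03 and 10.97 at day 19, against 11.16, 10.50 and 11.00 at day 7 (0.03 ± 0.25, adjusted p = 0.983), and its groups overlapped. OLE1 and SPT23 were named after their values were seen.

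IZH4 (YOL101C, chromosome XV), of a family of membrane proteins linked to zinc and sterol metabolism whose members include known Mga2 targets, had the largest difference of all 5449 genes. It stood at 11.47, 12.25 and 12.64 at day 19, against 6.98, 7.64 and 9.38 at day 7. The mean was 17.4-fold higher (4.12 ± 0.65, adjusted p = 0.139), and the lowest day 19 array lay about 2 log2 units above the highest day 7 array. IZH1 stood at 12.56, 13.90 and 14.13 at day 19, against 11.53, 10.16 and 11.82 at day 7, and IZH2 at 10.96, 12.66 and 13.05 at day 19, against 10.13, 10.10 and 10.54 at day 7. Neither overlapped, and in both the lowest value of day 19 came from replicate 1. IZH2 was named after its values were seen. The mean of IZH4 was 3.39 higher at day 15 than at day 7 and 0.73 higher at day 19 than at day 15, while for MGA2 the means at day 7, day 15 and day 19 were 9.95, 10.99 and 11.71. Most of the distance for IZH4 lay between day 7 and day 15.

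**Figure D2:**
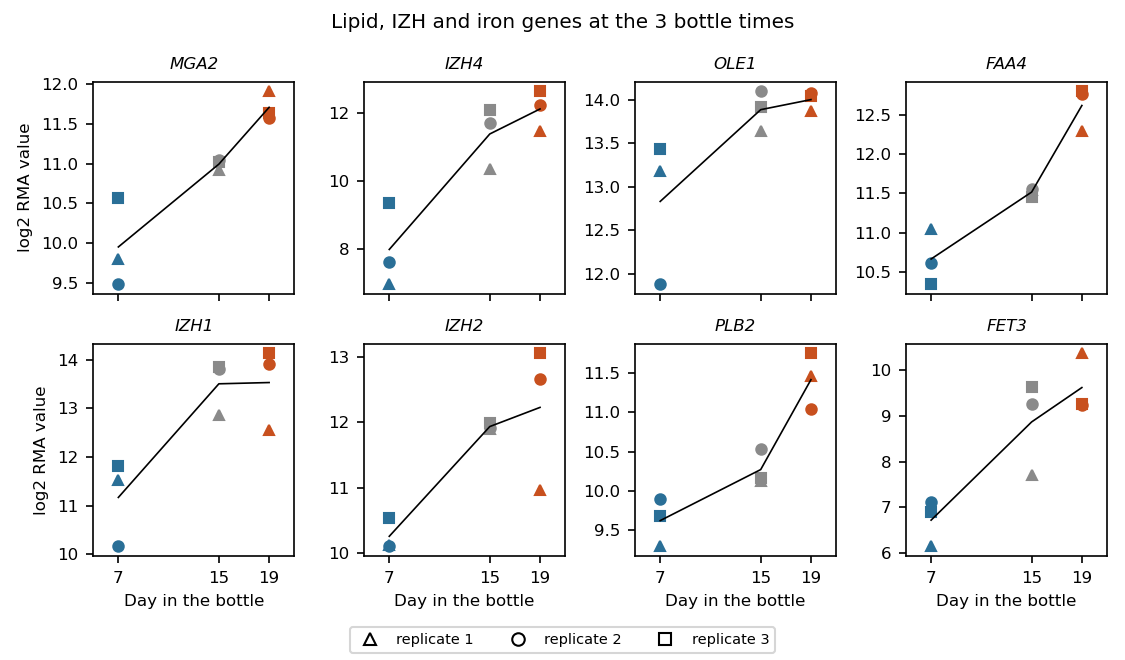
Log2 RMA values of MGA2, IZH4, OLE1, FAA4, IZH1, IZH2, PLB2 and FET3 against the day in the bottle (7, 15 and 19), with 3 arrays a day, a black line through the means and marker shapes for replicate numbers; the vertical axes differ between panels. All 8 genes have their highest mean at day 19, FAA4 and PLB2 with the larger step after day 15 and IZH4, OLE1 and IZH1 with the larger step before it.

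Of 18 genes of fatty acid synthesis and activation, 6 did not overlap upwards (33.3%, against 5.87% of all genes) and 1 downwards (5.56%, against 6.09%), while the median difference of the list was 0.05. Without both replicate 1 arrays 7 lay higher and 6 lower (38.9% and 33.3%, against 27.0% and 27.6% of all genes). The higher ones were FAA4, MGA2, OLE1, the acetyl-CoA carboxylase gene ACC1 (0.72 ± 0.27) and both subunits of fatty acid synthase, FAS1 (0.56 ± 0.22) and FAS2 (0.58 ± 0.24). The lower one was IFA38, the ketoreductase of fatty acid elongation (-0.56 ± 0.37). FAS1 stood at 13.84, 13.87 and 13.73 at day 19, against 13.25, 12.97 and 13.53 at day 7. ACC1, FAS1, FAS2 and IFA38 were named after their values were seen. Among 28 phospholipid genes 2 did not overlap upwards, PLB2 and INO1, and 3 downwards, 7.14% and 10.7% of the list and near the shares of all genes, and their median was -0.23. Without both replicate 1 arrays 3 did not overlap upwards and 12 downwards (10.7% and 42.9%, against 27.0% and 27.6% of all genes). INO1, which makes inositol phosphate, stood at 13.63, 13.54 and 13.48 at day 19, against 10.56, 13.22 and 13.33 at day 7, so its difference of 1.18 ± 0.62 rested on day 7 replicate 1 and was 0.24 without both replicate 1 arrays.

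Of 32 genes of ergosterol synthesis, uptake and storage, 30 had a higher mean at day 19, with a median difference of 0.81, against -0.01 over all genes. Of the 32, ERG24 (0.94 ± 0.29) and PDR11 (0.83 ± 0.40), named after their values were seen, did not overlap between the days, 6.25% of the list, close to the 5.87% of all genes. Without both replicate 1 arrays 29 of the 32 (90.6%) did not overlap upwards, where 27.0% of all genes did so with 2 arrays a group. The median level of the list relative to day 7 was -0.10, 1.27 and 1.28 on the 3 arrays of day 19, against -0.84, 0.31 and 0.54 on those of day 7. In each group replicate 1 was the lowest by far, so the groups overlapped, while the median difference without both replicate 1 arrays was 0.85. HMG1, an HMG-CoA reductase at the rate-limiting step, stood at 11.81, 13.62 and 13.28 at day 19, against 9.98, 11.52 and 12.80 at day 7 (1.47 ± 0.68, adjusted p = 0.63). UPC2, the sterol-sensing activator of these genes, stood at 8.39, 9.63 and 10.48 at day 19, against 8.06, 8.57 and 7.64 at day 7. Without day 19 replicate 1 UPC2 rose by 1.97 (adjusted p = 0.0441), and without both replicate 1 arrays by 1.95 (adjusted p = 0.0624), which did not pass.

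A list of genes known for their expression without oxygen was higher on 2 of the 3 arrays of day 19. It also held regulators, such as HAP1, ROX1, MOT3 and MGA2, so its shares are not those of hypoxic genes alone. Of its 27 genes 25 had a higher mean and 6 did not overlap upwards (22.2%, against 5.87% of all genes), with a median of 1.01. Without both replicate 1 arrays the median was 1.31, and 22 of the 27 did not overlap upwards (81.5%, against 27.0% of all genes) and 1 downwards. The 6 with all arrays were IZH4, MGA2, IZH2, EUG1, the fumarate reductase gene FRD1 and HAP1, the heme-responsive regulator. MGA2 is also counted in the fatty acid list, and IZH4 and IZH2 in the zinc list. HAP1 stood at 11.24, 11.07 and 11.70 at day 19, against 10.41, 9.96 and 10.19 at day 7 (1.15 ± 0.32, adjusted p = 0.478). EUG1, a protein disulfide isomerase, stood at 10.58, 10.55 and 10.89 at day 19, against 8.28, 10.39 and 10.09 at day 7, where replicate 1 was low. HAP1, FRD1 and IZH2 were named after their values were seen.

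The cell wall mannoproteins of anaerobic growth had a wide spread at day 19. DAN1 stood at 5.14, 13.00 and 13.38 at day 19, against 5.31, 9.62 and 9.18 at day 7. In each group replicate 1 was far below the other 2 arrays, so the difference over 3 arrays was 2.47 ± 1.98 (adjusted p = 0.77), while without both replicate 1 arrays it was 3.79 (adjusted p = 0.016). Of 24 seripauperin genes, the PAU family of stress and anaerobic mannoproteins, 13 could be assigned, 10 of them by probe sets that may read several near-identical PAU copies. All 13 had a higher mean at day 19, and for all 13 the groups overlapped. PAU5, which has a probe set of its own, stood at 9.58, 14.23 and 14.10 at day 19, against 9.57, 9.25 and 10.33 at day 7. The median level of the list was 0.06, 2.23 and 3.00 on the day 19 arrays, against -0.26, -0.06 and 0.17 on the day 7 arrays. Without day 19 replicate 1, 7 of the 13 rose at an adjusted p under 0.05, where 1.19% of all genes were called in either direction. PAU5 rose by 4.45 and PAU7 by 5.00 in that fit, and probe sets that share sequences are not separate observations. Without both replicate 1 arrays 0 of the 13 passed, the differences of PAU5 and PAU7 being 4.38 (adjusted p = 0.0533) and 4.87 (adjusted p = 0.0544).

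The genes called without day 19 replicate 1 included others of lipid and heme metabolism, named here because they passed in that fit. YEH1, a steryl ester hydrolase, stood at 9.56, 12.90 and 12.84 at day 19, against 8.48, 9.32 and 9.40 at day 7. It did not overlap on all 6 arrays and rose by 3.81 without day 19 replicate 1 (adjusted p = 0.0101). PDR16, a phosphatidylinositol transfer protein, stood at 10.51, 13.19 and 13.52 at day 19, against 10.78, 10.60 and 10.98 at day 7, so its replicate 1 of day 19 lay below every day 7 array but the others lay more than 2 log2 units above. The sterol acyltransferase gene ARE1 (1.70, adjusted p = 0.0441), the heme synthesis gene HEM13 (2.16, adjusted p = 0.0377), the hypoxic repressor gene ROX1 (1.71, adjusted p = 0.044) and the sterol-binding protein gene HES1 (2.95, adjusted p = 0.0376) also rose in that fit. Among those that fell in it were ABP1, an actin-binding protein, by 1.73 (adjusted p = 0.0288), and OTU1, a deubiquitinating enzyme, by 1.83 (adjusted p = 0.0248). Without both replicate 1 arrays YEH1, PDR16, ABP1 and OTU1 also passed, while ARE1, HEM13, ROX1 and HES1 did not.

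**Figure D3:**
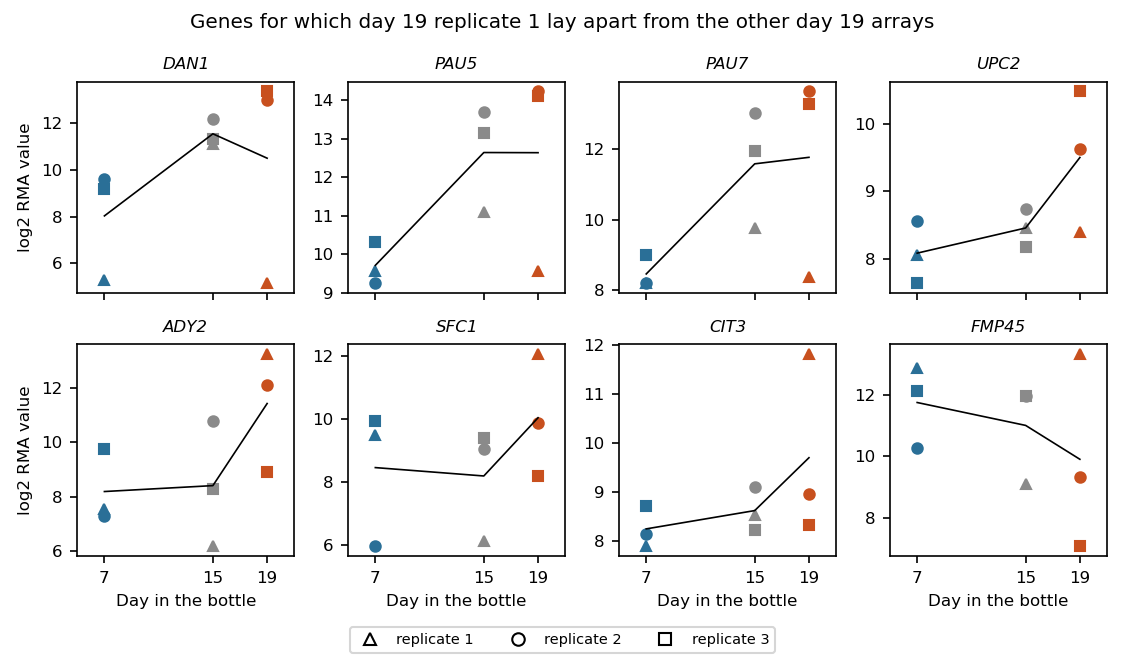
Log2 RMA values of 8 genes, chosen after their values were seen, against the day in the bottle (7, 15 and 19), with 3 arrays a day, a black line through the means and triangles for replicate 1; the vertical axes differ between panels. In the upper row (DAN1, PAU5, PAU7, UPC2) the day 19 triangle lies within or below the day 7 range and the other day 19 arrays lie above that range, and in the lower row (ADY2, SFC1, CIT3, FMP45) the day 19 triangle is the highest array.

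Metal uptake genes had several members whose groups lay far apart. FET3 (YMR058W, chromosome XIII), the copper oxidase of high-affinity iron uptake, stood at 10.37, 9.23 and 9.26 at day 19, against 6.14, 7.11 and 6.90 at day 7. Its mean was 7.46-fold higher (2.90 ± 0.53, adjusted p = 0.20), and it was called in the 12-array fit (adjusted p = 0.0441). FTR1, the permease that works with Fet3, stood at 10.75, 11.45 and 10.49 at day 19, against 8.23, 9.45 and 9.25 at day 7, with no overlap (1.92 ± 0.43, adjusted p = 0.465). The median of 31 iron genes was 0.41, or 0.24 without day 19 replicate 1 and 0.20 without both replicate 1 arrays. Of the 31, 27 had a higher mean, 5 did not overlap upwards (16.1%, against 5.87% of all genes) and none downwards. The other 3 were the siderophore transporter gene ENB1 and the reductase genes FRE4 and FRE5, and FRE5 was below background on both days. FTR1 differed from FET3 at day 15: its means at day 7, day 15 and day 19 were 8.98, 8.90 and 10.90, those of FET3 6.72, 8.87 and 9.62. Of 17 zinc genes, 4 did not overlap upwards (23.5%, against 5.87% of all genes), the 3 IZH genes and COT1, which carries zinc and cobalt into the vacuole (1.24 ± 0.32). The zinc importer gene ZRT1 stood at 12.14, 13.20 and 12.62 at day 19, against 12.37, 12.20 and 12.53 at day 7. Among 25 phosphate genes 3 did not overlap upwards (12%, against 5.87% of all genes) and 0 downwards. PHO80, the cyclin that represses the pathway, stood at 10.35, 10.28 and 11.02 at day 19, against 9.34, 9.36 and 9.71 at day 7, and the phosphate importer PHO84 overlapped. Among 18 thiamine genes 3 did not overlap upwards (16.7%, against 5.87% of all genes) and 0 downwards. THI22, related to thiamine synthesis enzymes, stood at 8.78, 9.54 and 10.20 at day 19, against 8.03, 8.01 and 8.01 at day 7 (1.49 ± 0.34, adjusted p = 0.465). ENB1, FRE4, FRE5, COT1, ZRT1 and PHO80 were named after their values were seen.

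The proteasome, which degrades ubiquitin-tagged proteins, was the list with the largest share of members lying apart. Of 37 genes, 36 had a lower mean at day 19, and for 23 (62.2%, against 6.09% of all genes) every array of day 19 lay below every array of day 7. No member passed the test, the differences being small: the median was -0.60, and members ranged from -0.92 to 0.29. The median level of the list was -0.33, -0.89 and -0.58 on the day 19 arrays, against -0.03, -0.02 and 0.04 on the day 7 arrays, so that the day 7 arrays were nearly equal and day 19 replicate 1 was the closest to them. PUP2, a subunit of the core particle, stood at 12.39, 11.30 and 11.44 at day 19, against 12.65, 12.51 and 12.73 at day 7 (-0.92 ± 0.35, adjusted p = 0.56). PRE3, a catalytic subunit, stood at 12.35, 11.48 and 11.63 at day 19, against 12.78, 12.84 and 12.55 at day 7. Regulatory particle genes lay on the same side, RPN9 by -0.82 ± 0.29 and RPT5 by -0.75 ± 0.29.

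The exception was RPN4, the transcription factor that activates proteasome genes, which had the highest difference of the list. It stood at 12.47, 13.29 and 13.66 at day 19, against 12.76, 13.24 and 12.53 at day 7 (0.29 ± 0.34), and its groups overlapped. The ubiquitin gene UBI4 stood at 13.27, 13.11 and 13.42 at day 19, against 13.37, 13.40 and 13.37 at day 7. Without both replicate 1 arrays the median of the 37 was -0.79, and 31 genes lay lower with no overlap, where 27.6% of all genes did so with 2 arrays a group. At day 15 the levels of the list were -0.16, -0.96 and -0.74, so replicate 1 was near day 7 there as well. RPN9, RPT5, RPN4 and UBI4 were named after their values were seen.

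**Figure D4:**
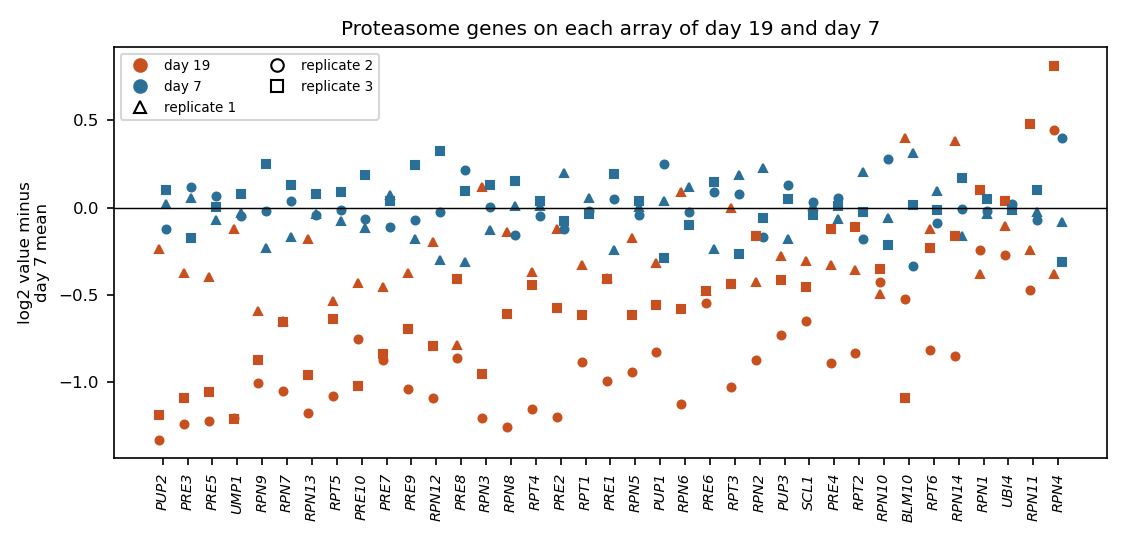
Log2 value minus the gene's day 7 mean for 37 proteasome genes, ordered by the difference between the days, with 1 point per array (day 19 orange, day 7 blue, marker shape for the replicate number). For most genes the orange points lie below the blue ones, with day 19 replicate 1 (triangles) often nearest to 0, and RPN4 at the right end is the gene with the highest difference (0.29).

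Aminoacyl-tRNA synthetases, which charge tRNAs for translation, lay on the same side. Of 20 genes 17 had a lower mean and 6 did not overlap downwards (30%, against 6.09% of all genes), with a median of -0.43. List levels were -0.51, -0.21 and -0.64 at day 19, against -0.11, 0.19 and -0.09 at day 7. VAS1, for valine, stood at 11.10, 10.72 and 10.40 at day 19, against 11.66, 11.58 and 11.64 at day 7 (-0.89 ± 0.34, adjusted p = 0.56). Cytosolic ribosomal proteins had a median of -0.15, and 7 of 128 genes (5.47%) did not overlap downwards, a share close to that of all genes. Mitochondrial ribosomal proteins had a median of -0.16, with 6 of 70 downwards (8.57%, against 6.09% of all genes). Without both replicate 1 arrays 42 of the 70 did not overlap downwards (60%, against 27.6% of all genes) and 6 upwards, with a median of -0.29. Ribosome biogenesis genes, which process ribosomal RNA, lay on the other side: 110 of 127 had a higher mean, with a median of 0.29, but only 6 did not overlap upwards (4.72%). Their levels at day 19 were 0.12, 0.70 and 0.05, against 0.49, -0.04 and -0.42 at day 7, where replicate 1 was the highest. Without both replicate 1 arrays their median was 0.63, and 72 of the 127 did not overlap upwards (56.7%, against 27.0% of all genes) and 2 downwards. DBP2, an RNA helicase, stood at 11.61, 12.32 and 12.17 at day 19, against 11.25, 9.47 and 8.95 at day 7 (2.15 ± 0.64, adjusted p = 0.51). Subunits and factors of RNA polymerases I and III had a median of 0.22 over 27 genes, with 3 not overlapping upwards (11.1%, against 5.87% of all genes). Translation factors had a median of -0.12 over 35 genes, with 1 not overlapping in each direction.

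Chaperones had a median of -0.41 over 36 heat shock genes, 28 of them with a lower mean, but the arrays of a day differed widely. List levels were -0.48, -0.94 and 0.44 at day 19, against -0.41, 0.47 and -0.06 at day 7, so the groups overlapped. SSA2, a cytosolic Hsp70, stood at 8.91, 10.55 and 13.72 at day 19, against 10.06, 14.16 and 13.56 at day 7. HSP82, an Hsp90, stood at 11.90, 10.98 and 13.74 at day 19, against 12.69, 13.95 and 13.24 at day 7. The 2 genes that did not overlap downwards were SBA1, a cochaperone of Hsp90 (-0.82 ± 0.30), and HSP31 (-0.63 ± 0.23), named after their values were seen. They were 5.56% of the list, against 6.09% of all genes.

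With all arrays, sugar use and fermentation genes lay mostly within the spread of the arrays. Of 19 glycolysis genes 16 had a lower mean, with a median of -0.28. Without both replicate 1 arrays 13 of the 19 did not overlap downwards (68.4%, against 27.6% of all genes) and 2 upwards (10.5%), with a median of -0.29. With all arrays HXK1 was the one that did not overlap. This hexokinase, known for its expression on carbon sources other than glucose, stood at 12.79, 13.63 and 13.34 at day 19, against 14.10, 13.93 and 14.01 at day 7 (-0.76 ± 0.25, adjusted p = 0.54). SUC2, the invertase that splits sucrose, stood at 12.82, 11.98 and 11.63 at day 19, against 12.39, 13.25 and 13.49 at day 7, and day 19 replicate 1 lay inside the day 7 range. The high-affinity hexose transporter HXT2 stood at 10.73, 13.56 and 9.25 at day 19, against 12.37, 13.65 and 13.57 at day 7, a difference of -2.02 ± 0.92. The medians were -0.20 over 21 hexose transport genes, with 1 not overlapping in each direction, and -0.31 over 10 sucrose and maltose genes, with none. Without day 19 replicate 1 they were -0.01 and 0.10, so that the sign of the sucrose and maltose median turned. In ethanol metabolism PDC5, a minor pyruvate decarboxylase, and ADH7, an alcohol dehydrogenase, did not overlap. PDC5 stood at 8.82, 11.41 and 11.53 at day 19, against 12.82, 11.81 and 11.68 at day 7, so most of its difference of -1.52 came from the replicate 1 arrays and it was -0.28 without them. SUC2 was named after its values were seen.

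Glycerol genes had a median of -0.65 over 12 genes, 11 of them with a lower mean and 3 not overlapping downwards (25%, against 6.09% of all genes). Their list levels were -0.17, -0.73 and -0.95 at day 19, against 0.17, 0.09 and 0.03 at day 7, with no overlap. STL1, which imports glycerol with protons, stood at 10.81, 10.32 and 7.69 at day 19, against 11.87, 11.42 and 12.76 at day 7, 5.32-fold lower on average (-2.41 ± 0.82, adjusted p = 0.54). GUT1, the glycerol kinase of glycerol use, stood at 12.59, 12.44 and 10.32 at day 19, against 13.39, 12.63 and 13.24 at day 7. DAK1, a dihydroxyacetone kinase, was the third (-0.70 ± 0.26), named after its values were seen. In trehalose and glycogen metabolism the median was -0.41 over 22 genes, with 3 not overlapping downwards (13.6%, against 6.09% of all genes) and 1 upwards. UGP1, which makes the UDP-glucose for both reserves, stood at 12.43, 12.52 and 12.54 at day 19, against 12.86, 13.25 and 13.31 at day 7, while SGA1, a glucoamylase known from sporulating cells, had the opposite sign (1.09 ± 0.44). UGP1 and SGA1 were named after their values were seen. PGM1, a phosphoglucomutase, stood at 7.68, 7.18 and 7.61 at day 19, against 8.15, 9.31 and 9.47 at day 7.

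Genes of growth on acetate, ethanol and fatty acids were high on day 19 replicate 1 alone or mainly. For 22 genes of gluconeogenesis and the glyoxylate cycle the list levels were 1.90, 0.25 and -0.37 at day 19, against 0.37, -0.56 and 0.39 at day 7. For 31 genes of beta-oxidation and the carnitine shuttle they were 1.59, 0.36 and 0.09 at day 19, against 0.16, -0.33 and 0.24 at day 7. The median differences, 0.32 and 0.52, became 0.15 and 0.23 without both replicate 1 arrays, and -0.17 and 0.14 without day 19 replicate 1 alone. With all arrays 1 of the 22 genes (4.55%) and 4 of the 31 genes (12.9%) did not overlap upwards, against 5.87% of all genes, and 0 downwards. ADY2, an acetate transporter, stood at 13.25, 12.13 and 8.92 at day 19, against 7.54, 7.27 and 9.74 at day 7, so that 1 array of day 19 lay within the day 7 range (3.25 ± 1.32, adjusted p = 0.56). CIT3, a mitochondrial citrate and methylcitrate synthase, stood at 11.81, 8.95 and 8.32 at day 19, against 7.88, 8.13 and 8.70 at day 7. CIT2, the peroxisomal citrate synthase, did not overlap on all 6 arrays, at 14.14, 13.06 and 13.72 at day 19, against 12.96, 11.57 and 11.82 at day 7 (1.53 ± 0.42, adjusted p = 0.478), and was named after its values were seen. Of 16 tricarboxylic acid cycle genes 14 had a lower mean, with a median of -0.29, and 1 did not overlap. Without both replicate 1 arrays 11 of the 16 did not overlap downwards (68.8%, against 27.6% of all genes) and 0 upwards, with a median of -0.54. Respiratory chain and ATP synthase genes, 40 in number, had a median of -0.11. Without both replicate 1 arrays 19 of the 40 did not overlap downwards (47.5%, against 27.6% of all genes) and 5 upwards (12.5%), with a median of -0.18.

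General stress genes had a median of 0.03 over 55 members. In each direction 1 did not overlap (1.82%, against 5.87% of all genes upwards and 6.09% downwards). These genes also followed replicate 1, with levels of 0.74, -0.21 and -0.17 at day 19, against 0.54, -0.47 and 0.05 at day 7. Their median turned to -0.15 without both replicate 1 arrays. SIP18, a desiccation protein, stood at 14.27, 13.19 and 12.28 at day 19, against 13.86, 8.24 and 10.94 at day 7, and FMP45, a membrane protein of stationary cells, at 13.32, 9.32 and 7.07 at day 19, against 12.86, 10.26 and 12.13 at day 7. Both overlapped. In oxidative defence 5 of 39 genes did not overlap downwards (12.8%, against 6.09% of all genes) and 2 upwards (5.13%, against 5.87%). The median of this list was -0.02. ZWF1, glucose-6-phosphate dehydrogenase, which feeds NADPH to this defence, stood at 11.72, 11.84 and 11.58 at day 19, against 12.48, 12.55 and 12.27 at day 7 (-0.72 ± 0.22, adjusted p = 0.512), and TRX1, a thioredoxin, stood at 12.38, 11.93 and 11.40 at day 19, against 12.53, 12.90 and 12.94 at day 7. ZWF1 and TRX1 were named after their values were seen.

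In the cell wall list 9 of 49 genes did not overlap upwards (18.4%, against 5.87% of all genes) and none downwards, although the list's median was -0.16. Neither held without both replicate 1 arrays, where 16 genes did not overlap upwards and 15 downwards (32.7% and 30.6%, against 27.0% and 27.6% of all genes) and the median was 0.01. Without day 19 replicate 1 alone the median was 0.22. The levels were -0.91, 0.33 and 0.17 at day 19, against -0.37, 0.30 and 0.09 at day 7, with replicate 1 lowest on both days. KNH1, related to glucan synthesis, stood at 10.27, 8.54 and 9.13 at day 19, against 8.54, 6.81 and 7.62 at day 7 (1.66 ± 0.50, adjusted p = 0.52), with the lowest array of day 19 and the highest of day 7 equal to 2 decimals. TIP1, a cold-shock mannoprotein, stood at 14.03, 13.73 and 13.97 at day 19, against 10.82, 13.04 and 13.23 at day 7, and PIR3, a wall protein bound to glucan, at 13.51, 13.74 and 13.82 at day 19, against 13.29, 12.52 and 12.31 at day 7. CHS2, the chitin synthase of the division septum, lay the other way, at 6.09, 7.49 and 6.72 at day 19, against 6.46, 9.22 and 9.73 at day 7 (-1.70 ± 0.81). FLO11, the flocculin of biofilm and flor, stood at 11.09, 8.71 and 9.98 at day 19, against 9.04, 12.94 and 12.57 at day 7, so its replicate 1 arrays had the opposite order to the rest. The median over 15 genes of flocculins and their regulators was -0.04, with 1 not overlapping downwards (6.67%) and 0 upwards. Without both replicate 1 arrays the median was 0.62, with 7 not overlapping upwards (46.7%) and 2 downwards (13.3%). NRG2 and AGA1, the 2 members with the largest difference, had higher means at day 19 (1.98 ± 0.78 and 1.67 ± 0.64), and both overlapped. TIP1, PIR3 and FLO11 were named after their values were seen.

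Cell cycle genes had a median of -0.20 over 34 members, 24 with a lower mean and 2 not overlapping downwards (5.88%). Without both replicate 1 arrays 16 of the 34 did not overlap downwards (47.1%, against 27.6% of all genes) and 7 upwards (20.6%), with a median of -0.27. SWI5, a transcription factor of late mitosis, stood at 5.34, 6.66 and 6.12 at day 19, against 6.24, 8.50 and 8.76 at day 7, and the mitotic cyclin CLB2 at 5.36, 7.60 and 7.59 at day 19, against 5.06, 9.07 and 9.05 at day 7. In both the replicate 1 arrays were low on either day. Of 47 genes of DNA replication and histones, 6 did not overlap downwards (12.8%, against 6.09% of all genes), among them the histone genes HTA1 (-0.48 ± 0.26), HTA2 (-0.45 ± 0.26), HHT1 (-0.22 ± 0.21) and HHT2 (-0.54 ± 0.27), named after their values were seen, the HTA2 probe set being shared with other sequences, while 3 did so upwards (6.38%, near the 5.87% of all genes), RNR3 and both primase genes. POL30, the sliding clamp of replication, stood at 10.49, 11.94 and 12.59 at day 19, against 9.24, 10.79 and 10.64 at day 7, with day 19 replicate 1 inside the day 7 range.

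With all arrays, nitrogen, amino acid and sulfur genes had medians near 0. Amino acid biosynthesis had a median of -0.06 over 64 genes, with 6 not overlapping downwards (9.38%) and 2 upwards. Nitrogen catabolite genes had a median of -0.10 over 37, with 3 downwards (8.11%). Of all genes 6.09% did so downwards and 5.87% upwards. The nitrogen catabolite median turned to 0.24 without both replicate 1 arrays, with 16 of the 37 genes (43.2%, against 27.0% of all genes) not overlapping upwards, and that of 22 amino acid permease genes was 0.04 with all arrays and 0.41 without these. STR3, a cystathionine lyase of methionine synthesis, stood at 10.99, 10.52 and 11.81 at day 19, against 9.35, 9.80 and 9.46 at day 7 (1.57 ± 0.39, adjusted p = 0.465). BAP3, a permease for branched-chain amino acids, stood at 11.57, 11.08 and 11.11 at day 19, against 6.82, 10.42 and 10.20 at day 7, so that its difference of 2.10 rested mainly on day 7 replicate 1 and was 0.78 without both replicate 1 arrays. The allantoin transporter DAL4 stood at 6.75, 7.28 and 6.54 at day 19, against 9.83, 7.12 and 7.56 at day 7, and the urea transporter DUR3 at 8.07, 8.87 and 9.06 at day 19, against 12.46, 8.46 and 8.98 at day 7. For both genes day 7 replicate 1 lay above the other 5 arrays. In the Ehrlich pathway, which makes aroma alcohols and esters, ATF2 overlapped at 6.13, 8.99 and 9.57 at day 19, against 4.19, 8.85 and 7.10 at day 7.

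Meiosis, spore and mating genes had more members lying apart upwards than the share of all genes. Of 28 early meiosis genes 9 did not overlap upwards (32.1%) and none downwards, with a median of 0.60 and levels of 0.39, 0.67 and 0.38 at day 19, against -0.16, -0.01 and 0.19 at day 7, which do not overlap. SPO11, which makes the DNA breaks of recombination, stood at 7.38, 8.30 and 8.68 at day 19, against 5.46, 6.55 and 6.97 at day 7 (1.79 ± 0.65, adjusted p = 0.56), and AMA1, a meiotic activator of the anaphase-promoting complex, at 8.37, 9.91 and 9.66 at day 19, against 7.57, 7.15 and 7.59 at day 7. Of 31 spore genes 6 did not overlap upwards (19.4%, against 5.87% of all genes) and 1 downwards, with a median of 0.43. SPS1, a kinase of spore wall formation, stood at 7.86, 10.60 and 11.40 at day 19, against 6.65, 7.39 and 7.27 at day 7 (2.85 ± 0.79, adjusted p = 0.48), and without both replicate 1 arrays it rose by 3.67 (adjusted p = 0.0273). SPS100, a spore wall protein, stood at 14.12, 11.49 and 11.51 at day 19, against 11.83, 7.77 and 8.25 at day 7, with replicate 1 highest on both days.

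Of 29 mating genes 5 did not overlap upwards (17.2%, against 5.87% of all genes), with a median of 0.53. Without both replicate 1 arrays 20 of the 29 did not overlap upwards (69.0%, against 27.0% of all genes) and 0 downwards, with a median of 0.75. PRM5, a pheromone-regulated membrane protein, stood at 9.33, 10.32 and 9.63 at day 19, against 7.17, 7.60 and 7.36 at day 7 (2.38 ± 0.67, adjusted p = 0.49). Markers of haploid and of sporulating cells were examined beside these lists, since EC1118 is a diploid. All 15 haploid-specific genes had a probe set, and their median level was 6.98 to 8.50 on the day 19 arrays and 7.33 to 8.0 on the day 7 arrays. Their median difference was 0.61, with 1 of 15 not overlapping upwards, where 5.87% of all genes did so. It was GPA1, named after its values were seen. On every array of day 19 all 15 lay above background, and 14 did so at day 7. Of all 5449 genes 5349 and 5346 did so, so these counts do not tell whether haploid cells were present. The 15 middle and late sporulation markers had median levels of 6.00 to 8.46 at day 19 and 5.89 to 7.28 at day 7. Their median difference was 0.43, and SPO74 was below background on every array. Of the 15, 2 did not overlap upwards, where 5.87% of all genes did so. The part of haploid or sporulating cells in the differences of the meiosis, spore and mating lists was not tested.

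Autophagy genes had 7 of 36 members not overlapping upwards (19.4%, against 5.87% of all genes) and none downwards, with a median of 0.12. Without both replicate 1 arrays 9 did not overlap upwards and 11 downwards (25% and 30.6%, against 27.0% and 27.6% of all genes), and the median was -0.08. ATG8, whose product coats the autophagosome, stood at 13.01, 12.69 and 13.07 at day 19, against 12.65, 12.33 and 12.48 at day 7 (0.44 ± 0.23), and ATG10, a conjugating enzyme, at 10.14, 10.37 and 11.47 at day 19, against 9.91, 10.07 and 9.65 at day 7. Of 16 vacuolar hydrolase genes 3 did not overlap downwards (18.8%, against 6.09% of all genes). These were APE1, at 10.92, 11.04 and 10.52 at day 19, against 12.04, 12.11 and 11.76 at day 7, CPS1, a carboxypeptidase (-0.86 ± 0.28), and VTH1, a sorting receptor (-0.75 ± 0.31), whose probe set is shared with other sequences. ATG8, CPS1 and VTH1 were named after their values were seen. Genes of protein folding and glycosylation in the endoplasmic reticulum had a median of -0.21 over 38 members. In each direction 2 did not overlap (5.26%, against 5.87% of all genes upwards and 6.09% downwards). Without both replicate 1 arrays 21 of the 38 did not overlap downwards (55.3%, against 27.6% of all genes) and 6 upwards, with a median of -0.29.

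**Figure D5:**
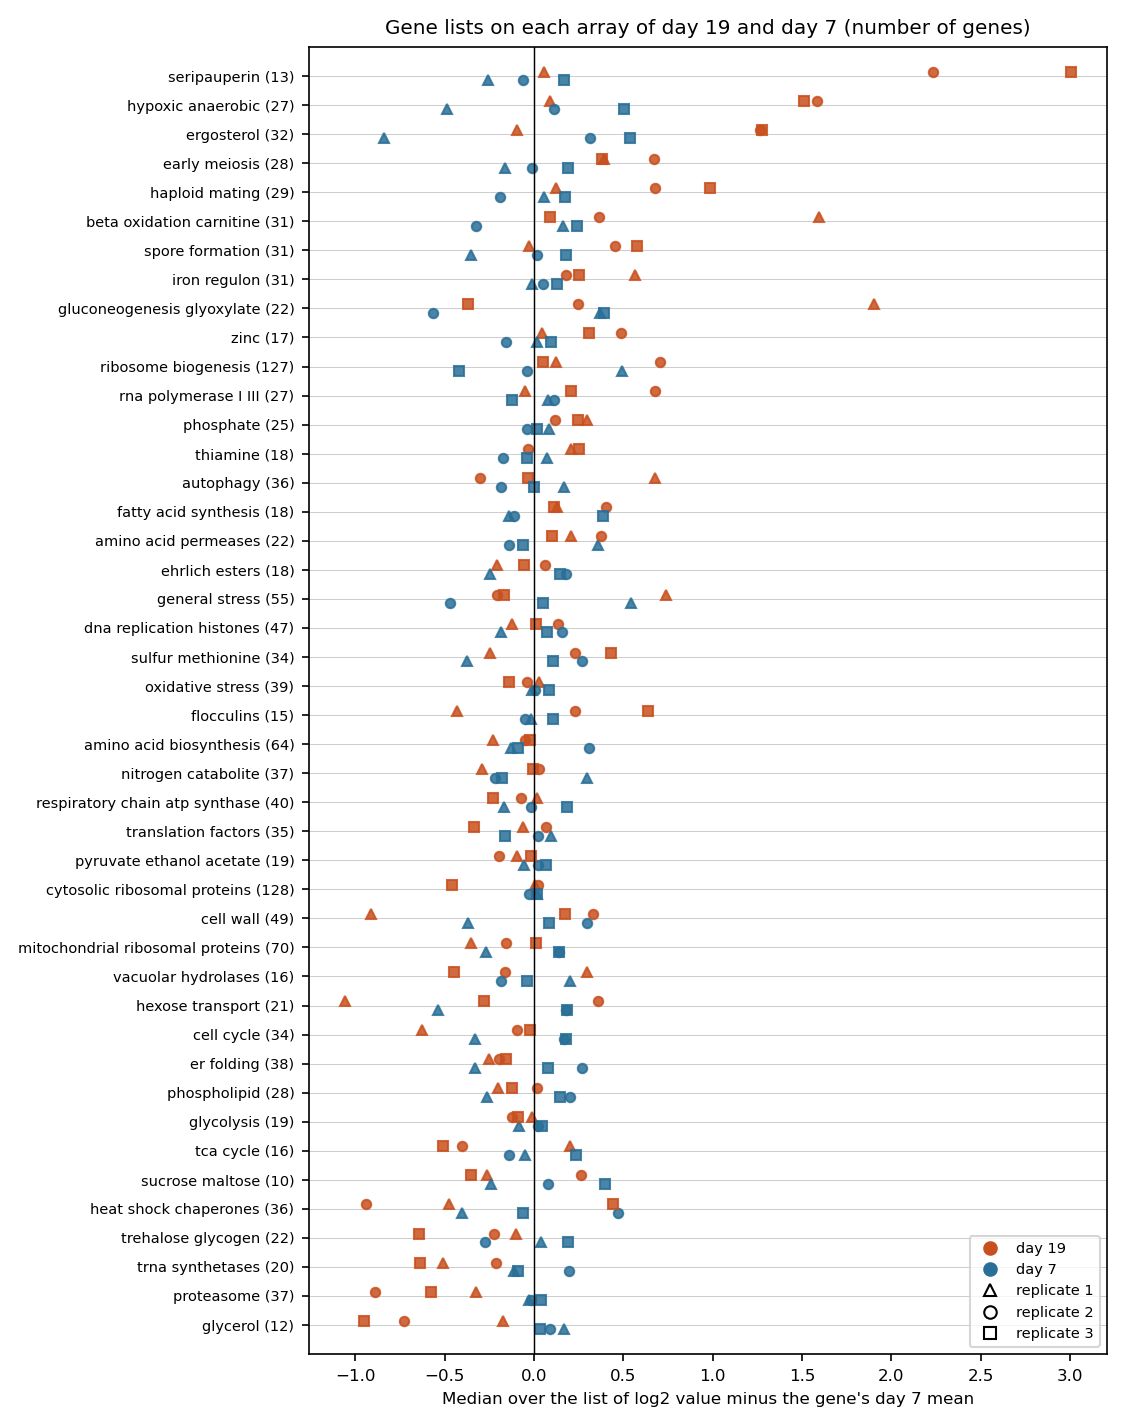
Median over each of 44 gene lists of the log2 value minus the gene's day 7 mean, for each array of day 19 (orange) and day 7 (blue), ordered by the median difference, with the number of genes in brackets and marker shapes for replicate numbers. Seripauperin genes lie highest on 2 of the 3 day 19 arrays (2.23 and 3.00) with replicate 1 at 0.06, gluconeogenesis and beta-oxidation genes highest on replicate 1 (1.90 and 1.59), and glycerol and proteasome genes below 0 on all 3.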

How the data were processed

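RNA of 12 samples was measured on single-colour Affymetrix Yeast Genome 2.0 arrays. The deposited values are log2 expression values made by the authors with RMA, per the submitters' processing notes. The software used for it is not given in the sources used here. Of 10928 probe sets, 5498 had exactly 1 S. cerevisiae gene in the platform annotation, with symbols updated through RefSeq (12 changed). For 47 genes with several probe sets the one with the highest mean over bottle arrays was used, which left 5449 genes. No deposited per-sample column was left unused (0). Day 19 was compared with day 7 in limma 3.58.1 (R 4.3.3; lmFit, eBayes) on the 9 bottle arrays, with Benjamini-Hochberg adjustment over all genes and a threshold of 0.05. The number of arrays limits the precision. The code was tested on simulated data.

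Gene lists and comparisons were chosen with earlier results of these data known. Genes named by rule were the 10 of smallest p in each direction, as none was called, and in each of 44 lists the 2 members with the largest difference. Other genes are marked where named. List levels are medians of values minus each gene's day 7 mean. Some genes are in several lists, so the shares of such lists are not separate observations. Alternatives were 3 other normalizations, dim-gene and probe set filters, other variance models, array sets and thresholds, array weights, the replicate number as a block, removal of a trend on coding length, and each array left out. The counts of non-overlapping list members without both replicate 1 arrays were added after seeing the data.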

Additional observations from a re-analysis of the deposited data

How the results depend on the processing

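The counts of 0 higher and 0 lower genes were kept under median centring, quantile normalization, centring on S. pombe probe sets, a filter against dim genes, the use of every probe set, the removal of shared ones, trend and robust variance, only the 6 arrays compared and removal of the length trend. A 2-fold minimum and an adjusted p under 0.01 cannot add calls to 0 and so say nothing about stability. They became 7 and 1 with all 12 arrays, 148 and 113 with array weights, which gave day 19 replicate 1 a weight of 0.21 and day 7 replicate 1 a weight of 0.34, and 19 and 7 without both of these arrays. With each array left out they ranged over 0 to 49 and 0 to 16, and day 19 replicate 1 was the only array whose removal gave any call. With the replicate block they were 1 and 0. The numbers were not taken to pair the samples, since the labels do not say that they mark a shared batch. Deviations of same-numbered arrays from their day's means correlated at 0.41, 0.35 and 0.06 between day 19 and day 7. The values were -0.19, -0.28 and 0.20 between day 15 and day 7, and -0.15, -0.04 and -0.01 between day 19 and day 15. Arrays of unlike number were not set beside them, so these values do not settle whether the numbers mark pairs. Of 97 genes named by rule, 91 kept their sign in all 22 fits. HXK2 turned to 0.17 and PAI3 to -0.069 without day 19 replicate 1 (ranges with each array left out -1.46 to 0.17 and -0.069 to 1.91). RPL31B turned to 0.026 and RPL9A to 0.014 without day 19 replicate 3 (ranges -1.09 to 0.026 and -0.92 to 0.014). DUR3 turned to 0.24 and SUL1 to 0.34 without both replicate 1 arrays. In all, 2131 values of single genes were recomputed: 2054 kept their sign and side of the threshold, 71 passed it only in the alternative and 6 turned. Of 968 list medians 32 moved by more than the spread between arrays. The cause of these shifts was not tested. With 3 arrays a day, the median standard error of 0.33 limits which differences can be told from 0.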
